A study of Homo sapiens with 2 samples.

Results

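Forkhead (FOX) genes were examined in HEK293T cells that expressed IRX1::GFP, the homeobox protein IRX1 fused to green fluorescent protein, or GFP alone. Members were all genes whose symbol in the array annotation is FOX followed by 1 letter from A to S and a number, with or without a closing letter. This gave 39 genes with 93 probe sets, out of 19775 genes with 41097 probe sets that carry a single symbol. HEK293T is a human embryonic kidney line that carries the SV40 large T antigen. The cells were transiently transfected by polyethylenimine with pcDNA3.1-IRX1::GFP or pcDNA3.1-GFP and sorted for GFP 48 h later, so both groups had passed through transfection and sorting. For each group 1 Affymetrix human expression array was analysed here. A figure legend of the study gives replicates for this experiment, and whether the deposited arrays are single replicates or pools was not settled. With 1 array per group there is neither a replicate error nor a p-value, and how precise a value is depends above all on this small number.

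FOX proteins are transcription factors that share a winged-helix DNA-binding domain, the forkhead domain, and are sorted into subfamilies by letter. They include pioneer factors that open chromatin, factors of mesenchyme and neural crest, the insulin-controlled FOXO proteins, the mitotic factor FOXM1 and the FOXP repressors. FOXP1 is known for its part in B-cell and neuronal development.

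The deposited values are MAS5 signals, a brightness on a linear scale set equal between arrays by the authors. A gene was read from its brightest probe set, the one with the highest mean of both signals, and compared by its log2 ratio, with IRX1::GFP in the numerator. Genes with a mean signal of at least 183, the median of the non-control probe sets, passed the filter, and at least 2-fold was called higher or lower. Olfactory receptor genes, assumed here to be mostly silent in these cells, served as background. It was set per array at the 90th percentile of their 107 probe sets (143 for GFP control, 179 for IRX1::GFP). Where 1 of the signals was at or below background, "at least" marks a fold taken against the background level instead, and where both were, no fold appears. The median signal was 171 for GFP control and 195 for IRX1::GFP. RNA quality, read from the 3-prime over 5-prime ratio of control probe sets, differed between the arrays, with 3.23 against 1.64 for ACTB and 1.22 against 1.01 for GAPDH (GFP control first). Whether this entered the FOX values was not tested. IRX1 has a single probe set here, at 33.1 and 57, both below background, so it does not check the labels. Of 9 measured genes known from HEK293 cells, 8 were above background on each array, with PAX2 the exception in the GFP control and EYA1 with IRX1::GFP.

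On the GFP control array 26 of the 39 FOX genes were above background, and with IRX1::GFP 28 were, 24 of them on both arrays. The 4 genes above it only with IRX1::GFP were FOXE1, FOXH1, FOXJ1 and FOXP3, and the 2 only in the GFP control were FOXA2 and FOXS1. Of all genes, 64% and 63.5% were above background on these arrays, and 11734 of 19775 were above it on both. How many of all genes were above it on 1 array only was not counted, so the 4 and 2 are a description.

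**Figure D1:**
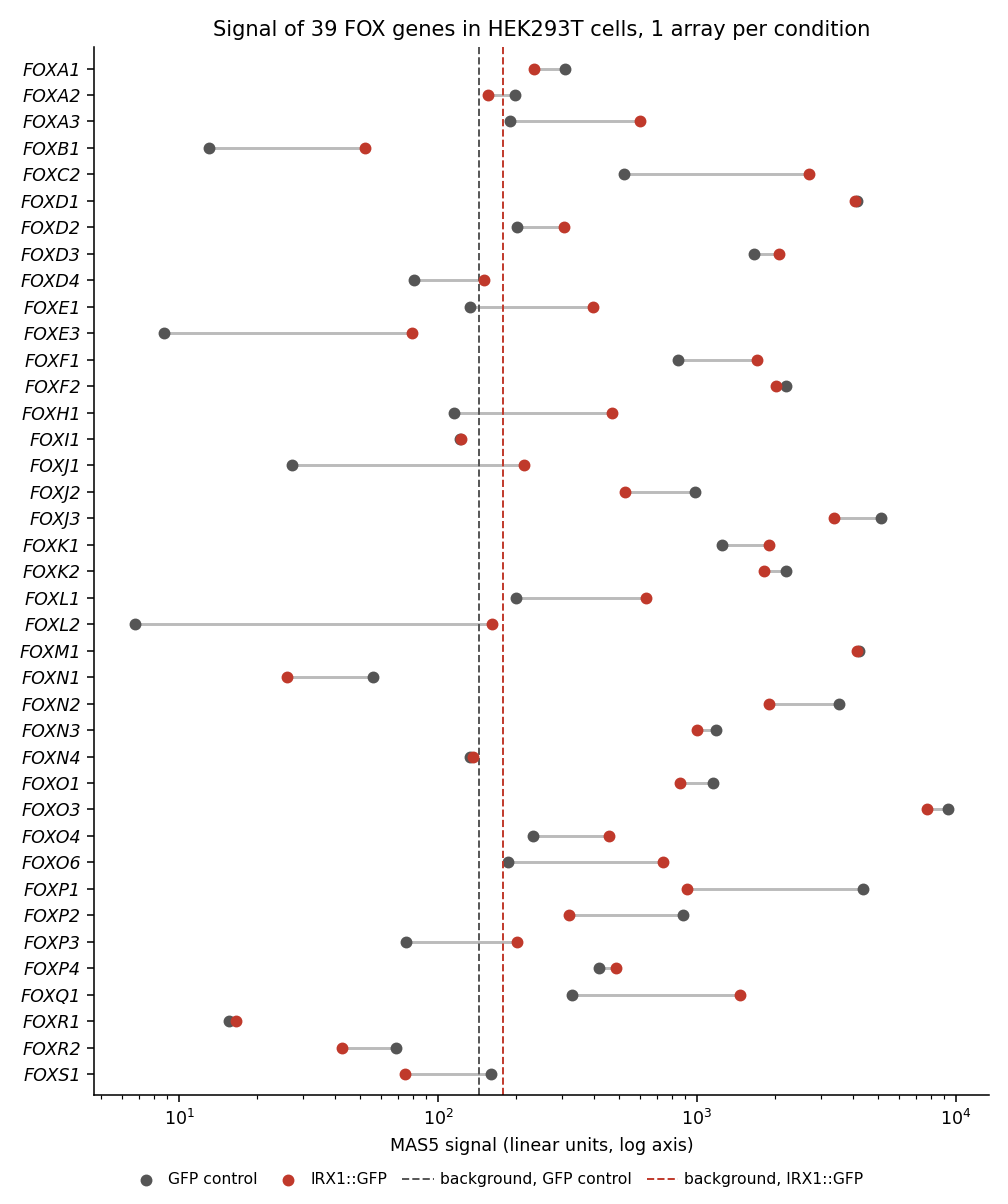
Each row is 1 FOX gene, with the MAS5 signal of its brightest probe set (x, log axis) in the GFP control (grey) and with IRX1::GFP (red), 1 array each, and dashed lines at the olfactory receptor background of 143 and 179. FOXP1 and FOXP2 lie far to the left with IRX1::GFP, FOXC2 and FOXQ1 far to the right, and FOXD1 and FOXM1 nearly coincide.

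FOX genes differed in both directions with IRX1::GFP. Of the 26 past the filter, 8 were higher by 2-fold or more, FOXC2, FOXQ1, FOXH1, FOXO6, FOXL1, FOXA3, FOXE1 and FOXF1, the last of which fell short of 2-fold under 3 other scalings. This is 30.8%, against 10.4% of all 12193 genes past the filter. FOXH1 and FOXE1 passed the filter only through the IRX1::GFP array, so their calls are partly set by the filter. The 2 genes at least 2-fold lower were FOXP1 and FOXP2, or 7.69% against 5.34% of all genes. The other 16 were within 2-fold, 5 with a log2 ratio above 0 and 11 below. The median log2 ratio of the 26 genes was 0.10 and that of all genes 0.07. The FOX median was -0.19 over the 14 genes at or above the 75th percentile of signal, so its sign rests on the dimmer genes. The median of all genes turned too, from 0.24 below that percentile to -0.03 at or above it.

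The share of genes called higher differed with signal. Between the filter level and the 75th percentile of signal, at 905, 6 of 12 FOX genes were at least 2-fold higher against 16.7% of all genes. These 6 include FOXH1 and FOXE1, which passed the filter only through the IRX1::GFP array. In the same range 1 was lower (FOXP2) against 5.23%. At or above 905, 2 of 14 were higher (FOXC2 and, in the deposited scaling only, FOXF1) against 6.68%, and 1 was lower (FOXP1) against 5.41%. In 20 bins of 609 or 610 genes of like signal, FOXC2, FOXQ1 and FOXO6 lay above the 95th percentile of log2 ratios of their bin. FOXP1 and FOXP2 lay below the 5th percentile of theirs, while FOXL1, FOXA3 and FOXF1 lay inside the range. FOXH1 and FOXE1 were not placed, since their GFP control signal was below background and their exact ratio is not known.

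**Figure D2:**
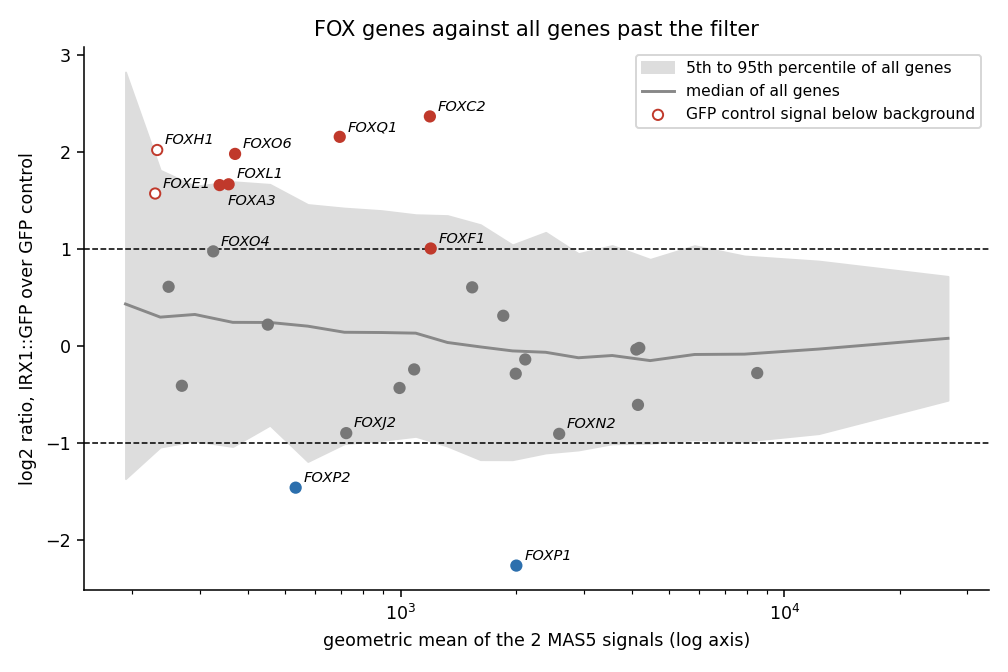
Each point is 1 of the 26 FOX genes past the filter, with the geometric mean of its 2 signals (x, log axis) and its log2 ratio (y), over the 5th to 95th percentile (grey band) and median (line) of all genes in 20 bins of signal. Dashed lines mark 2-fold, and FOXC2, FOXQ1, FOXO6, FOXP1 and FOXP2 lie outside the band, while open circles (FOXH1, FOXE1) have a GFP control signal below background and no exact ratio.

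All 8 higher genes rest on 1 probe set past the filter each, so within the array they have no second reading at that signal. The only spread that the arrays offer is that between probe sets of 1 gene, which holds isoform differences and leaves out differences between cultures. Its SD on the log2 scale was 0.49 over 5930 genes and 0.55 over the 9 FOX genes with 2 or more probe sets past the filter. In 6 of these 9, all such probe sets lay on the same side of 0. How often this held among the 5930 genes was not counted, so the 6 of 9 are a description.

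**Figure D3:**
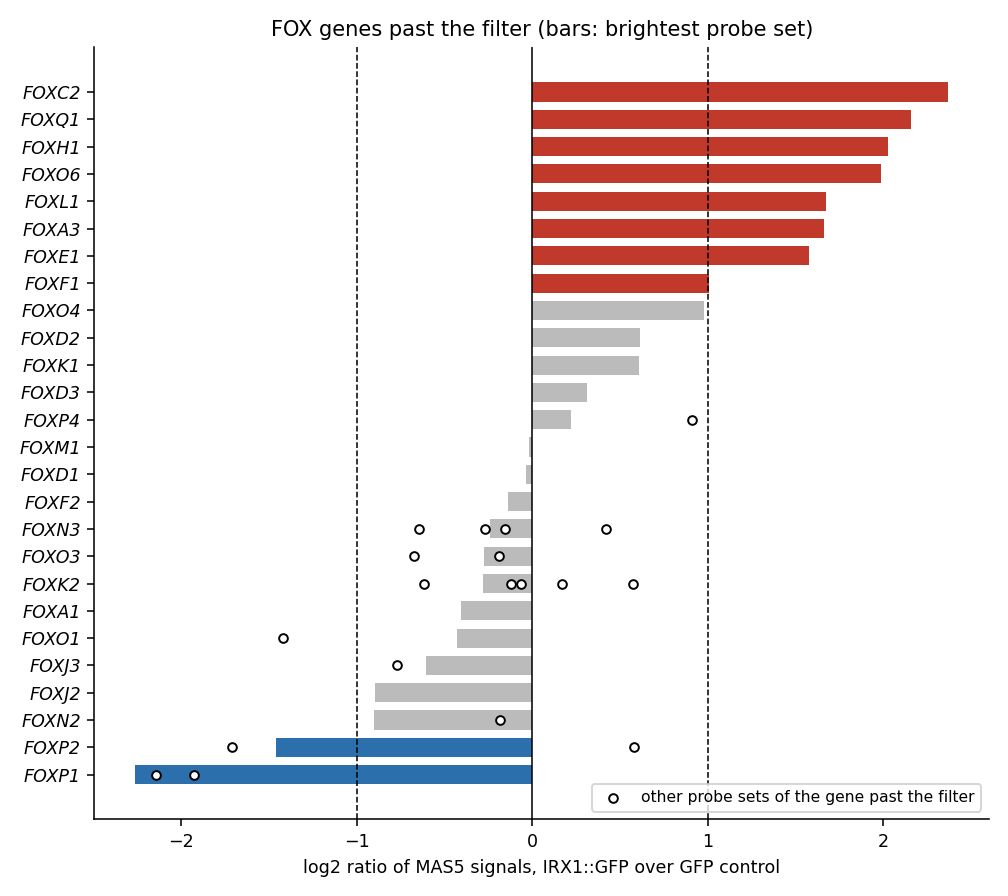
Bars are the log2 ratios of the brightest probe set of the 26 FOX genes past the filter, with calls of at least 2-fold in red and blue, and open circles are further probe sets of the same gene past the filter. All 3 FOXP1 probe sets lie below the lower dashed line, the third FOXP2 probe set lies above 0, the FOXH1 and FOXE1 bars rest on a GFP control signal below background, and FOXF1, at 1.01, touches the upper line, which it did not reach under 3 other scalings.

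The FOXP subfamily held both lower genes. FOXP1, a repressor needed for early B-cell development, read 4388 for GFP control and 915 for IRX1::GFP, 4.8-fold lower. Its second probe set went from 2862 to 649 and another from 2704 to 711. All 3 thus gave a log2 ratio between -2.26 and -1.93, and the other 5 FOXP1 probe sets did not pass the filter. The study names FOXP1 from this experiment, so its value here is not independent evidence. FOXP2, known for its part in speech and language, went from 883 to 321, 2.75-fold lower, and on its second probe set from 782 to 239, 3.27-fold lower. Another FOXP2 probe set went the other way, from 158 to 236, near background on both arrays, and as the mean over probe sets the log2 ratio of FOXP2 was -0.86, within 2-fold. FOXP4, which is expressed in lung and gut, read 417 and 487, and its second probe set 186 and 350, while its antisense RNA FOXP4-AS1 read 267 and 466. For FOXP3, the factor of regulatory T cells, 75.2 and 202 were read, with no probe set past the filter. Against the background of the GFP control array this is at least 1.41-fold higher. The IRX1::GFP signal was just below the 95th percentile of olfactory receptors on its array, at 203. The other FOXP3 probe sets were below background on both arrays. The subfamily therefore did not move as one.

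Of 7 measured corepressors known to act with FOXP proteins, all past the filter, none reached 2-fold in either direction, against 10.4% higher and 5.34% lower of all genes, and the median log2 ratio was 0.11 (-0.11 with only _at probe sets). CTBP2 was lowest at 13597 and 7623, a log2 ratio of -0.83, and CTBP1 read 6371 and 7369. The histone deacetylase gene HDAC2 read 17946 and 14728, and MTA1, of the NuRD complex, 3073 and 3870.

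RefSeq lists 6 start sites for FOXP1 and 2 for FOXP2, and the 250 bases before each were searched on both strands for TGTTTAC, a core forkhead motif, and for ACANNTGT, a palindrome known as a binding sequence of Iroquois proteins. Windows of 29 of the 39 FOX genes were found. TGTTTAC lay in windows of 1 of these genes, FOXP1, against 3.66% of all genes with a window. By window this was 1 of 40 FOX windows, against 2.98% of all 35116 windows. ACANNTGT lay in windows of FOXP1 and FOXR2, against 5.78% of all genes with a window. By window this was 2 of 40, against 4.71% of all windows. With its 6 windows FOXP1 had more room for a match than a gene with 1. The FOXP1 windows that hold a match are shown because FOXP1 had the lowest log2 ratio of the FOX genes past the filter, with the match in capitals (TGTTTAC in the first, ACATTTGT in the second). A FOXP2 window and that of FOXQ1, the gene with the highest ratio whose window was found, are set beside them and hold no match. Bases run 5′ to 3′ along the gene and end at the base before the start site, in GRCh38.p14.
FOXP1 (chr3:71245078-71245327, minus strand): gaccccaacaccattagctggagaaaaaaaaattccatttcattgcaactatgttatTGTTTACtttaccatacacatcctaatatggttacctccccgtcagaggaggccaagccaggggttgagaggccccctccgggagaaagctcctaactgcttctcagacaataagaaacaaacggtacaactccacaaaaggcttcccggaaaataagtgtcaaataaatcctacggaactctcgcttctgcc
FOXP1 (chr3:71132198-71132447, minus strand): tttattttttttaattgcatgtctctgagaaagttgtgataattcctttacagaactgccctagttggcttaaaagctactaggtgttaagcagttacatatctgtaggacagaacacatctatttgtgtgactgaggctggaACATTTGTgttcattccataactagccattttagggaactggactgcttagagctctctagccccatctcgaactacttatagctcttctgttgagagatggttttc
FOXP2 (chr7:114414565-114414814, plus strand): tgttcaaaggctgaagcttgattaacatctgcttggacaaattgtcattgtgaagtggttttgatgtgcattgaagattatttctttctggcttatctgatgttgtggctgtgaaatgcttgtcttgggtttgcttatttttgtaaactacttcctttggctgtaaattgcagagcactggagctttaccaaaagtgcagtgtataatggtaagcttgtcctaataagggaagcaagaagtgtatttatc
FOXQ1 (chr6:1311848-1312097, plus strand): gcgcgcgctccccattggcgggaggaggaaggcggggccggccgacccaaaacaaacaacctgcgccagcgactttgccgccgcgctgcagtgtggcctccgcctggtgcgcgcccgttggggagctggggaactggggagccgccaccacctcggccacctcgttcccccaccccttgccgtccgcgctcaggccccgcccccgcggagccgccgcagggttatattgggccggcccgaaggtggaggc
A match is only a string of letters, and nothing was measured at these sites. The base composition of the windows differed. The FOXQ1 window holds 74% G and C with 29 CG pairs, the FOXP2 window 37.6% with none, and the FOXP1 windows shown 45.2% and 38.8%. The 6 FOXP1 windows range from 38.8% to 75.6%, and those shown were chosen for a match, so their composition does not stand for FOXP1. Averaged over the windows of a gene, GC content was 74% to 81.6% in the 4 higher genes with a window, FOXA3, FOXE1, FOXO6 and FOXQ1, and 36.6% and 54.2% in FOXP2 and FOXP1. For the other higher genes, FOXC2, FOXF1, FOXH1 and FOXL1, no window was found. The 14 genes within 2-fold ranged from 54.4% to 85.6% with a median of 68.9%, and the median over all windows was 58%. Whether base composition goes with direction was not tested.

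FOXF1, FOXC2 and FOXL1 are neighbours on chromosome 16, with MTHFSD as the only protein-coding gene among them, and all were higher with IRX1::GFP by 2-fold or more, FOXF1 only just and only in the deposited scaling. FOXC2, a factor of mesenchyme and lymphatic vessels, went from 524 to 2711, 5.17-fold higher, the largest ratio of the family among genes past the filter. A dimmer FOXC2 probe set went from 226 to 105 and did not pass the filter, so the probe sets of FOXC2 disagree. FOXL1, a factor of gut mesenchyme, went from 200 to 636, 3.18-fold higher, with a second probe set at 5.19 and 7.5, below background. FOXF1, which acts in lung and gut mesenchyme, went from 845 to 1700, 2.01-fold higher. Its log2 ratio of 1.01 was just past the limit and was 0.93 after median centring, 0.98 after quantile normalization and 0.99 after loess, just short of it. The nearest gene outside the limit was FOXO4, at 0.98.

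The transcripts between and beside these genes did not all move alike. FENDRR, a long non-coding RNA divergent from FOXF1, read 202 and 390, 1.93-fold higher, and its second probe set was below background. FLJ30679, a non-coding RNA between MTHFSD and FOXC2, went from 797 to 2016, 2.53-fold higher. MTHFSD stayed within 2-fold on all 4 probe sets past the filter, with log2 ratios of -0.26 to 0.34, the brightest at 968 and 1180. FENDRR, FLJ30679 and MTHFSD were chosen for their place beside the members, after the values of the members were seen. Among 6 genes of fibroblasts and endothelium, COL1A1 went from 631 to 2571 on the same arrays and LUM and CDH5 were below background on both. COL1A2 read 175 and 169, DCN 184 and 117, and PECAM1 178 and 203. Of the 6 genes, 4 were above background on the GFP control array and 2 on the other, and their summed signal was 1294 and 3147. Their part in the values of the mesenchymal FOX genes was not tested.

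**Figure D4:**
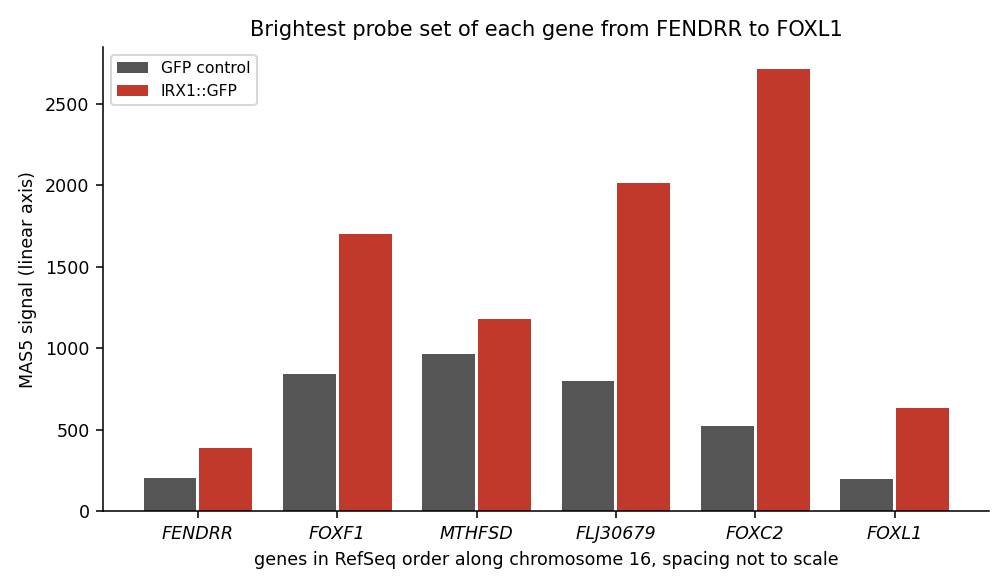
Bars are the MAS5 signals (linear axis from 0) of the brightest probe set of each measured gene from FENDRR to FOXL1 in RefSeq order on chromosome 16, GFP control in grey and IRX1::GFP in red, 1 array each. FOXC2, FOXL1 and FLJ30679 show the widest gaps as ratios, FOXF1 is at 2.01-fold (short of 2-fold under 3 other scalings) and MTHFSD within 2-fold, and heights are to be read within a gene only.

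On chromosome 6, FOXQ1 and FOXF2 lie next to each other with 1 protein-coding gene model between them, and they differed. FOXQ1, linked to hair differentiation and to epithelial-mesenchymal transition, went from 328 to 1467, 4.47-fold higher. FOXF2, a close relative of FOXF1, read 2215 and 2016. The non-coding RNA FOXCUT of the same region read 223 and 212. FOXC1, the next FOX gene there, was not analysed here.

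Among the FOXA pioneer factors of endoderm and liver, FOXA3 went from 190 to 601, 3.16-fold higher. FOXA1 read 310 and 234, and its dimmer probe set 117 and 196, so no common direction was seen for FOXA1. FOXA2 read 198 and 156, at least 1.11-fold lower. The subfamily members did not share a direction. Of the 4 liver genes set as a check, APOA1 went from 84.7 to 315 and ALB from 219 to 135, and TTR and SERPINA1 were below background on both arrays.

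FOXE1, a factor of the thyroid, went from 133, below background, to 396, at least 2.76-fold higher against the background of the GFP control array. With both signals raised to the higher of the background levels its log2 ratio was 1.15. FOXE3, a lens factor, was below background on both arrays. The FOXD genes were within 2-fold. FOXD1, a marker of the kidney stroma, read 4164 and 4067, and FOXD3, a factor of neural crest and pluripotent cells, 1661 and 2065. FOXD3-AS1, the antisense partner of FOXD3, read 686 and 780. FOXD2 read 201 and 308, and FOXD4 was below background on both. The FOXD1 probe set has a suffix (_s_at) that marks probes shared between transcripts. So have the brightest probe sets of FOXH1, FOXJ3, FOXK2, FOXO1 and FOXP3. The single probe sets of FOXM1 and FOXO6 have another suffix (_x_at), which marks probes that may also bind other sequences.

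FOXH1, which carries SMAD proteins to DNA in nodal and activin signalling, went from 115, below background, to 468, at least 3.27-fold higher against the background of the GFP control array. With both signals raised to the higher of the background levels its log2 ratio was 1.39. Its other probe set was below background on both arrays. Past the filter were 7 FOXH1 partners and nodal target genes, of which 4 were higher by 2-fold or more and none lower, against 10.4% and 5.34% of all genes. Their median log2 ratio was 1.02, against 0.07 for all genes. At the 75th percentile filter it was 0.10, and 1 gene of the list was called higher, against 6.68% of all genes. LEFTY1, a nodal target that restrains the pathway, went from 285 to 2873, 10.1-fold higher. The mesendoderm factor EOMES went from 303 to 1178, 3.88-fold higher, and SMAD3 from 252 to 639, 2.54-fold higher. NODAL, the ligand itself, read 156 and 317, 2.03-fold higher, and fell short of 2-fold after median centring, quantile normalization and loess and with the floor at background, with log2 ratios of 0.83 to 0.95. The targets GSC, MIXL1 and CER1 were below background on both arrays. SMAD2, at 1533 and 1036, and SMAD4, at 2739 and 1820, were within 2-fold. GSC, MIXL1, CER1, SMAD2 and SMAD4 were named after their values were seen. Each of the 4 higher genes rests on 1 probe set past the filter. NODAL, FOXH1 and FOXE1 passed it only through the IRX1::GFP array, so their difference is partly set by the filter. EOMES, SMAD3 and NODAL lie between the filter level and the 75th percentile of signal, where 16.7% of all genes were called higher. The median log2 ratio of all genes in that range was 0.24. Among the 24 FOX genes above background on both arrays, 6 were higher and 2 lower by 2-fold or more, against 8.61% and 4.61% of all such genes, with a median log2 ratio of -0.026.

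FOXO proteins leave the nucleus when insulin signalling through AKT is active, and otherwise switch on genes of stress resistance and cell-cycle arrest. FOXO6, known mainly from brain, went from 186 to 737, 3.95-fold higher, on a single _x_at probe set. FOXO4 read 232 and 456, 1.97-fold higher and just within 2-fold. FOXO1 read 1154 and 856 on its brightest probe set, but a second went from 657 to 246, 2.67-fold lower. FOXO3 was lower, within 2-fold, on all 3 probe sets past the filter. The brightest read 9354 and 7723, a log2 ratio of -0.28, less than the SD between probe sets of 1 gene. Another read 4056 and 2541, a log2 ratio of -0.67, larger in size than that SD. A further pair of bright probe sets that name FOXO3 together with FOXO3B read 1860 and 1418, and 518 and 433. The better known FOXO1 and FOXO3 thus read lower, and FOXO4 and FOXO6 higher, with only FOXO6 past 2-fold on its brightest probe set.

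Among the 24 FOXO target genes that passed the filter, calls of 2-fold went 3 times to higher and 2 times to lower, against 10.4% and 5.34% of all genes. Their median log2 ratio was -0.10, and its sign turned with the mean over probe sets (0.069) and without a filter (0.024). The targets added without a filter were below background on both arrays. CDKN1B, the cell-cycle inhibitor p27, went from 10082 to 3102, 3.25-fold lower, and the stress gene SESN1 from 3064 to 1389, 2.21-fold lower. TXNIP, a regulator of thioredoxin, went from 1379 to 3208 and the receptor gene ERBB3 from 465 to 1112. The third higher gene, the apoptosis gene BCL2L11, read 1745 and 3844 on its brightest probe set, and its other 6 past the filter were within 2-fold, as was its mean over probe sets. BCL2L11 was named after its values were seen. Of 26 genes past the filter that act upstream of FOXO, 1 was higher and 1 lower, against 10.4% and 5.34% of all genes, with a median of -0.16. PHLPP1, a phosphatase that acts on AKT, went from 506 to 223, 2.27-fold lower, and the 14-3-3 gene SFN from 976 to 2057, 2.11-fold higher. SGK1, a kinase of FOXO proteins, read 1279 and 2499, and the 14-3-3 gene YWHAE 14339 and 8827, both within 2-fold.

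FOXM1 drives genes of G2 and M phase. It read 4214 and 4163, a log2 ratio of -0.02, on its single probe set. All 29 FOXM1 target genes passed the filter, with 1 called higher and 1 lower against 10.4% and 5.34% of all genes. Their median log2 ratio was 0.18, and -0.12 with only _at probe sets. HMMR, which encodes a spindle-associated protein, went from 14297 to 4177, and both HMMR probe sets were lower. CENPA, the centromeric histone, went from 926 to 2141, 2.31-fold higher. PLK1, the mitotic kinase, read 475 and 860, and the spindle gene TPX2 6740 and 3737, both within 2-fold. Of 6 genes of the MuvB complex and MYBL2, with which FOXM1 acts, LIN54 was called lower, from 456 to 210, against 5.34% of all genes, and none was called higher. LIN54 did not pass the 75th percentile filter. LIN52 read 7619 and 4383, LIN9 2000 and 1180, and MYBL2 5549 and 3826, within 2-fold each, and the median of the 6 was -0.65. FOXM1 and most of its targets were thus within 2-fold between the arrays.

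**Figure D5:**
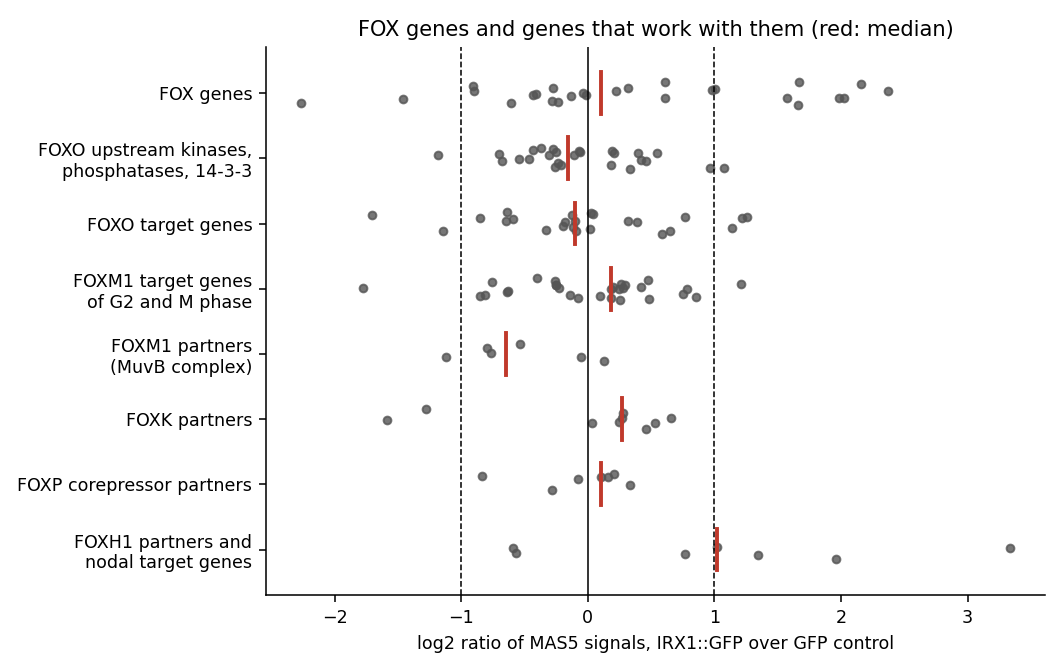
Points are log2 ratios (above 0, higher with IRX1::GFP) for the genes past the filter among FOX genes and 7 lists of genes that act with them (vertical scatter only separates points), with medians in red and dashed lines at 2-fold. The FOXH1 and nodal list has its median at 1.02, the MuvB list at -0.65, and FOX genes range from -2.26 to 2.37 around a median of 0.10.

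The FOXK proteins, repressors of autophagy genes, were within 2-fold. FOXK1 read 1245 and 1897. FOXK2 read 2202 and 1809, and its 6 probe sets past the filter ranged from -0.61 to 0.57 in log2 ratio, on both sides of 0. Of 9 measured FOXK partners, 2 were called lower and none higher, against 5.34% and 10.4% of all genes. OGT, the enzyme that adds N-acetylglucosamine to proteins, went from 13476 to 4488, 3-fold lower, and 4 of the 5 OGT probe sets past the filter reached 2-fold. MBD5 went from 878 to 363, 2.42-fold lower, while MBD6 read 3106 and 4910 and HCFC1 1357 and 1962. The median of the list was 0.27.

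The FOXJ and FOXN genes past the filter read lower on their brightest probe set, within 2-fold. FOXJ2 read 985 and 529, 1.86-fold lower. FOXJ3 was lower on both probe sets, at 5125 and 3370 and at 795 and 466. FOXN2 read 3543 and 1894, 1.87-fold lower, though its dimmer probe set, at 297 and 261, differed little. FOXN3, which acts in checkpoint responses, read 1179 and 999, with 4 of 5 probe sets past the filter below 0 and 1 above. Its antisense RNA FOXN3-AS1 read 453 and 307. FOXJ1, the factor of motile cilia, was below background in the GFP control at 27.2 and read 215 with IRX1::GFP. This is at least 1.5-fold higher against the background of the GFP control array, but FOXJ1 did not pass the filter.

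Of the 13 FOX genes that did not pass the filter, 9 were below background on both arrays and have no fold. These were FOXB1, FOXD4, FOXE3, FOXI1, FOXL2, FOXN1, FOXN4, FOXR1 and FOXR2. FOXL2, the ovarian factor, read 6.75 and 161, which is still below background. FOXS1, known from perivascular cells, read 161 in the GFP control, just above background, and 74.4 with IRX1::GFP, and no fold can be given. Among genes of blood cells, where FOXP1 and FOXP3 are best known, PTPRC and SPI1 were below background on both arrays. CD14 went from 327 to 856, CD79A from 94.2 to 256 and CD3E from 244 to 168, and HBB read 242 and 263. The summed signal of the 6 measured blood genes was 994 and 1634, with CD14 the brightest on both arrays.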

How the data were processed

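RNA from GFP-sorted HEK293T cells, 1 array per condition, was hybridised to Affymetrix expression arrays by the authors, who deposited MAS5 signals, a linear intensity. The submitters' processing notes give MAS5 as the tool, with the version not given in the sources used here. Without the lowest and highest 2% the mean of each column was 1000 after rounding. Probe sets were named from the platform annotation. Of 54675, 1801 with several symbols and 11777 unnamed here were left out, and symbols were updated through RefSeq (GRCh38.p14) for 41043 of 41097. Log2 ratios, the filter, the 2-fold limit and the olfactory receptor level were computed as given above, and the steps were tested on simulated data. No test was made, as each condition has 1 array. Named were all FOX genes above background on at least 1 array, and up to 4 members of each of the 7 lists with the largest log2 ratio in size. Further members named are the remaining FOX genes, genes singled out in the text and checks of other cell types. The members and lists were chosen with earlier results of these data known. Promoter windows came from RefSeq (GRCh38.p14). Tried as alternatives were quantile normalization, median centring, loess (span 0.3), the 75th percentile as filter, all genes unfiltered, both signals above background, a floor at the higher of the background levels, the mean over probe sets, only _at probe sets, probe sets in place of genes, and the 95th percentile of olfactory receptors. Some genes of the lists were not analysed here. Python 3.11.15, numpy 2.4.6, pandas 2.3.3, statsmodels 0.14.6 and matplotlib 3.10.9 were used.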

Additional observations from a re-analysis of the deposited data

How the results depend on the processing

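No paired analysis was possible because a single array stands for either group, and for the same reason no array was omitted in turn. Unfiltered, 13 FOX genes were called higher and 4 lower, against 17.5% and 10.0% of all genes. The genes so added were FOXB1, FOXE3, FOXL2, FOXJ1 and FOXP3 (higher) and FOXN1 and FOXS1 (lower). By the background rule none of them has a fold of 2. FOXB1, FOXE3, FOXL2, FOXN1 and FOXS1 have no fold, and FOXJ1 and FOXP3 only bounds of 1.5 and 1.41. At the 75th percentile of signal, 2 FOX genes were called higher and 1 lower, against 6.68% and 5.41% of all genes. The FOX median log2 ratio was -0.19 there. The median was -0.026 with both signals above background, 0.27 with only _at probe sets and -0.14 over probe sets in place of genes. In the last setting 6 FOX probe sets were lower, against 6.02% of all probe sets past the filter. With the mean over probe sets 1 FOX gene was lower, against 4.35% of all genes. After median centring, quantile normalization and loess 7 FOX genes were higher and 2 lower, FOXF1 having dropped below 2-fold. In that order, 9.14%, 9.12% and 9.31% of all genes were higher, and 6.35%, 5.80% and 5.65% lower. With the 95th percentile of olfactory receptors as background, 25 of 39 FOX genes exceeded it on the GFP control array and 27 on the IRX1::GFP array. Of all genes, 61.2% and 61.4% did. Read gene by gene, 24 of the 26 FOX genes past the filter, all but FOXF1 and FOXP2, kept their side of 2-fold in each alternative that kept them. Over probe sets in place of genes, 1 FOXO1 probe set was also lower.

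Of the lists, the FOXH1 and nodal median was 0.84 after quantile normalization, 0.86 after loess, 0.90 unfiltered and 0.83 with the floor at background. At the 75th percentile filter it was 0.10, and 1 member was called higher, against 6.68% of all genes. The FOXO target median was 0.024 unfiltered, with 6 called higher against 17.5% of all genes, and 0.069 with the mean over probe sets. The targets called higher only when unfiltered, TNFSF10, PCK1 and IGFBP1, were below background on both arrays and have no fold. With only _at probe sets, 1 FOXO target was called higher and 1 lower, against 10.2% and 5.83% of all genes. In this setting 0 FOXO upstream genes and 0 FOXM1 targets were called higher. The FOXM1 target median was then -0.12 and the FOXP corepressor median -0.11. The FOXM1 target median was 0.065 after quantile normalization. At the 75th percentile filter, 0 FOXO upstream genes, 0 MuvB genes and 1 FOXK partner were called lower, against 5.41% of all genes. The MuvB median was -0.54 there. The causes were not tested, except that this filter leaves fewer genes.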
